A study of Mus musculus with 2 samples.

Results

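Genes that read out the circadian clock or the response to glucocorticoids were followed across the cell classes of mouse bone marrow, 10 genes out of 13211 listed for at least 1 of 2 libraries. The genes are Arntl, Per1, Per2, Dbp, Nr1d1 and Nr1d2 of the clock, and Ddit4, Tsc22d3, Fkbp5 and Txnip, which glucocorticoids, nutrients and stress control. They were selected on measured values, since differences between genotypes and cell types in these same libraries led to their choice, so every value below is a description and carries no test. All 10 were listed for both libraries. The study deleted Col1a1, which encodes the α1 chain of type I collagen, in Fsp1-lineage cells and profiled single cells of the marrow by droplet sequencing of transcript 3′ ends. The Col1a1fspKO library came from Fsp1-Cre;Col1a1flox/flox mice, in which the promoter of Fsp1, also called S100a4, drives Cre and the floxed exons of Col1a1 are removed. The WT library came from littermates that were negative for Cre and carried the same Col1a1flox/flox alleles, so WT here means Cre-negative and not free of the floxed allele. Each library pooled sorted live cells from the femurs and tibias of 2 mice at 2 months of age, and there was 1 library per genotype. The hour of collection was not given in the sources used here.

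In the molecular clock, BMAL1, the product of Arntl, pairs with CLOCK on E-boxes and switches on the Per, Cry and Nr1d genes, whose products then hold BMAL1 and CLOCK, or Arntl itself, in check. Corticosterone carries the daily rhythm to peripheral tissues through the glucocorticoid receptor, which induces Per1, Tsc22d3, Fkbp5 and Ddit4 in many cell types. In bone marrow these signals are known to shape the release of leukocytes and the survival of lymphocytes.

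Sequences upstream of annotated starts are shown for 5 of the genes, as a description that was not tested against the expression values, from RefSeq on GRCm38.p6, the mm10 build of the files. Motifs were searched in the 250 bases before each start, on both strands. They were the E-box CACGTG, the D-box TTATGTAA or TTATGCAA, the orphan receptor site AGGTCA and the core of the glucocorticoid receptor element, ACANNNTGT. The E-box and the receptor core read alike on both strands, and no matches among the windows shown overlapped. Capitals mark matches, and each stretch runs up to the RefSeq start used or, where an annotated exon begins before it, up to that exon. The windows of Per1 and Fkbp5 lie inside longer annotated gene models with other starts further upstream. Per1 is shown because its window held 3 matches, Fkbp5 and Txnip because they held an E-box and a receptor core, and Arntl and Ddit4, the genes with the most confined pattern and the largest difference, held none.
Per1: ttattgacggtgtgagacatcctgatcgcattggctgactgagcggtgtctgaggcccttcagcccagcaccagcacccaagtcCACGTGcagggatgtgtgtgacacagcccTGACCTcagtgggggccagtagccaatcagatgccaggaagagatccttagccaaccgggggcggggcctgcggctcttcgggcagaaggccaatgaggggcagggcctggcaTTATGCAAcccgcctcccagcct
Fkbp5: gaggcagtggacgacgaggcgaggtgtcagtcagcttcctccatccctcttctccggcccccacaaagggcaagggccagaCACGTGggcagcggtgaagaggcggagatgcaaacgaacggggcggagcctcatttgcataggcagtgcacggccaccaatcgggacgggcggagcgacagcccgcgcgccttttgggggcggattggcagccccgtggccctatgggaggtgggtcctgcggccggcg
Txnip: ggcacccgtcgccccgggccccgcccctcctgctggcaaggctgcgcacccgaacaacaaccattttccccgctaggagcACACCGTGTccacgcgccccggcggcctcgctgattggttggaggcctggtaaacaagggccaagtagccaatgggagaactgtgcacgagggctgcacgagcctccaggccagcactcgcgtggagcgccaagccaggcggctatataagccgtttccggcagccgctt
Arntl: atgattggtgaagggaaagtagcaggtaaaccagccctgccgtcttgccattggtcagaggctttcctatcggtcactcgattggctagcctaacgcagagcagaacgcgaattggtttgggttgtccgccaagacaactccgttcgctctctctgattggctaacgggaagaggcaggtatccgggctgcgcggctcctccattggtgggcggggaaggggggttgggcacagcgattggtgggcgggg
Ddit4: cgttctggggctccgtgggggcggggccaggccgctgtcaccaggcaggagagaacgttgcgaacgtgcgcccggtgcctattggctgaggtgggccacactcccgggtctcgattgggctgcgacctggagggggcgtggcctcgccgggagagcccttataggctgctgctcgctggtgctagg
The stretches lie at chr11:69098699-69098947 on the plus strand, chr17:28486150-28486399 on the minus strand, chr3:96557707-96557956 on the plus strand, chr7:113207215-113207464 on the plus strand and chr10:59951835-59952020 on the minus strand. In Per1 the E-box began 166 bases before the start, an orphan receptor site on the opposite strand 137 bases before it and the D-box 24 bases before it. The E-box of Fkbp5 began 169 bases, and the receptor core of Txnip 170 bases, before the start. RefSeq windows matched 9 of the 10 genes, in 13 windows. An E-box lay in 2 of these 13 windows, from 2 genes, and in 6.02% of all 32851 windows. A D-box lay in 1 of the 13, from 1 gene, and in 1.5% of all windows. An orphan receptor site lay in 2 of the 13, from 2 genes, and in 14.02% of all windows. A receptor core lay in 1 of the 13, from 1 gene, and in 5.84% of all windows. A match is a string of letters and not a bound site, and reads from the 3′ end do not tell which start of Per1, Arntl or Tsc22d3 was used.

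The libraries held 1309 Col1a1fspKO and 1169 WT cells with 8647722 and 8624469 unique molecular identifiers (UMIs, one per captured transcript molecule), at medians of 4954 and 5534 UMIs per cell. Of the barcodes, 2 occurred in both libraries. Cells fell into 15 clusters, built without the genes described here, of which 14 took a name from marker genes. Ptprc, the pan-leukocyte marker CD45, had UMIs in 52.9% of Col1a1fspKO and 50.5% of WT cells, while Col1a1 itself had 3 and 0 UMIs, so the deletion cannot be seen in these cells, and 3′ counts would not mark the loss of its floxed exons. Xist had 0 and 3 UMIs and the Y-linked Ddx3y 280 and 289, so neither pool stood apart by sex. Some genes were nearly on or off by library, such as the Ly6 family gene Ly6c1 with 4397 and 58 UMIs, BC018473 with 0 and 401 and Ifi202b with 136 and 0, which were chosen after their values were seen. Their part in the differences below was not tested. The hour of collection and the genetic background of each pool cannot be told apart from the genotype in any difference between these 2 libraries.

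Levels are given as counts per 1000000 UMIs of a class in a library (CPM), and ratios are Col1a1fspKO over WT with an exact 95% counting interval. Intervals cover counting error alone, because with 1 library per genotype the spread between mice is not measured.

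Arntl, the transcription factor that drives the positive limb of the clock, was found almost wholly in B cell-like cells. These cells held 449 of its 483 UMIs, or 93.0% (exact binomial interval 90.3 to 95.1%), though they held 19.7% of all UMIs. The B cell-like level was 113 CPM in Col1a1fspKO, from 185 UMIs, and 149 CPM in WT, from 264 UMIs. In both libraries the level was far above every other class, and over both libraries together the interval of B cell-like cells, 120 to 145 CPM, lay above that of the next class, T/NK-like cells, at 4.80 to 28.5 CPM. From T/NK-like cells down to the late neutrophil-like cells, where no UMI was seen, the intervals of neighbouring classes overlapped.

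Within the B lineage Arntl was lower in a more mature cluster than in a pre-B cluster, in both libraries. Cluster 3, led by the pre-B genes Myl4, Igll1, Vpreb3 and Ebf1, had 154 UMIs at 128 CPM in Col1a1fspKO and 244 UMIs at 171 CPM in WT. The small cluster 14, led by Vpreb1, Dntt and Igll1 of pro-B cells, had 18 UMIs at 419 CPM and 6 UMIs at 176 CPM among 14 and 9 cells. A UMI was seen in 8 and 2 of these cells. In Col1a1fspKO its interval, 248 to 662 CPM, lay above that of cluster 3, 108 to 149 CPM. In WT its interval, 64.4 to 382 CPM, spanned that of cluster 3, 150 to 194 CPM, so a step from pro-B to pre-B was not resolved there. Cluster 5, led by Ms4a1 and Fcmr of more mature B cells, had 13 UMIs at 34.1 CPM and 14 UMIs at 44.9 CPM. Arntl was itself among the 10 leading genes of cluster 3 although it took no part in the clustering. With every cell thinned to 2500 UMIs, 26.98% of Col1a1fspKO and 36.0% of WT cells of cluster 3 had an Arntl UMI (exact intervals 19.5 to 35.6% and 28.0 to 44.7%), against 59.5% and 64.7% at their own depth. Mono/Macro-like cells, a class with almost no Arntl, had shares of 1.12% and 0.361%, at median depths of 5951 and 5799 UMIs per cell against 6172 and 8399 in cluster 3.

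The Arntl ratio in B cell-like cells was 0.762 (0.628 to 0.923), and that of cluster 3 was 0.747 (0.606 to 0.917). In cluster 5 it was 0.761 (0.329 to 1.74), and in cluster 14 it was 2.39 (0.907 to 7.34). Cluster 3, with 126 and 136 cells, was shallower in Col1a1fspKO than in WT and the B cell-like class held more cells of cluster 5 in Col1a1fspKO, 108 against 77, and the part of this mix in the ratio was not tested beyond the values by cluster. Of markers of other cells in the B cell-like class, plasma cell markers summed to 1067 and 715 CPM with 4 of 4 listed genes detected in each library, late neutrophil markers to 876 and 571 CPM with 9 of 9, T/NK markers to 58.3 and 29.9 CPM with 10 and 8 of 11 listed, Ncr1 being at 0 in both, and erythroid markers to 9964 and 15477 CPM with 12 of 12, while the class's own markers summed to 8637 and 8321 CPM. Their part in the Arntl ratio was not tested. Over all cells Arntl had 201 and 282 UMIs, a ratio of 0.711 (0.590 to 0.855).

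**Figure D1:**
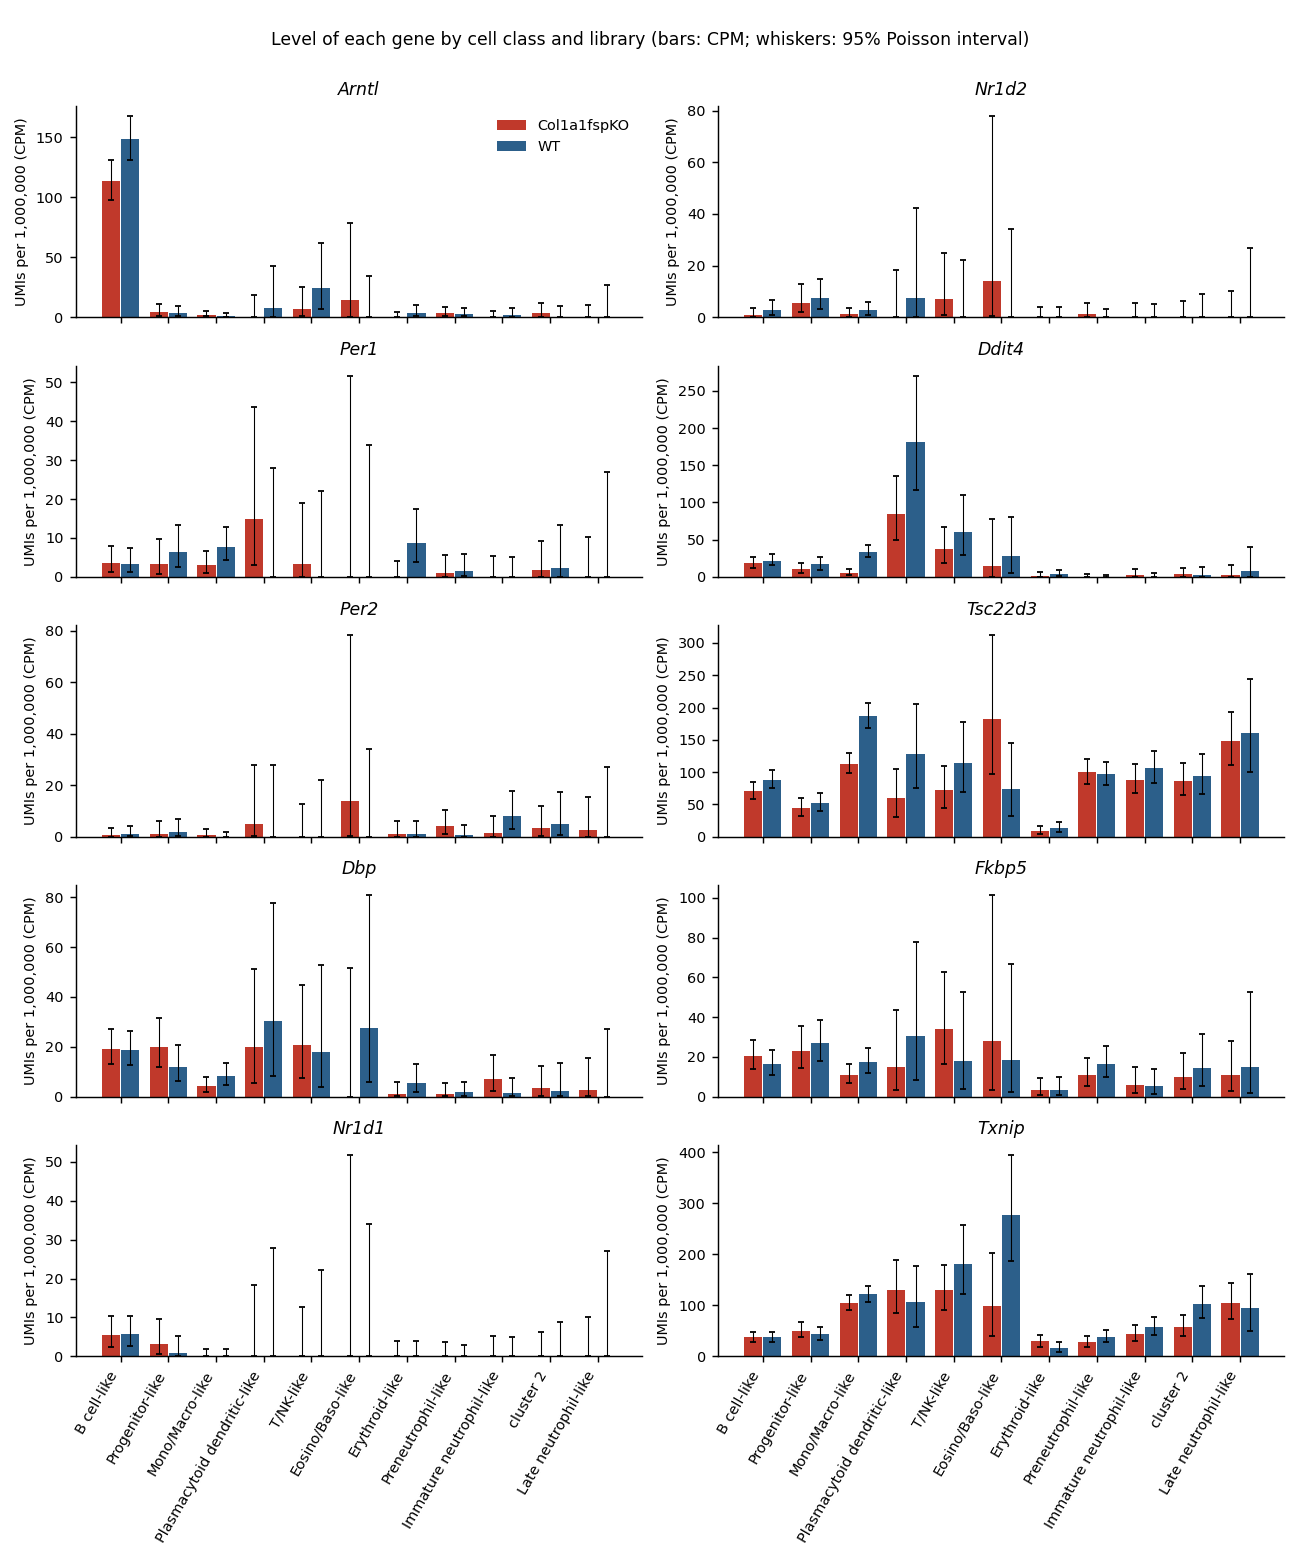
Level of each gene in 11 cell classes of both libraries, as summed UMIs per 1000000 UMIs of the class (CPM, y axis of its own in each panel), with whiskers for the exact 95% Poisson interval. Arntl stands in B cell-like cells at 113 and 149 CPM and Ddit4 peaks in plasmacytoid dendritic-like cells at 84.7 and 182 CPM, while Tsc22d3 and Txnip are spread over most classes.

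The other clock genes were sparse. Per1, a repressor of the clock and a direct glucocorticoid target, was counted 21 times in the Col1a1fspKO and 39 times in the WT library, a ratio of 0.537 (0.300 to 0.936). Mono/Macro-like cells held 21 of these 60 UMIs, 6 in Col1a1fspKO and 15 in WT, and erythroid-like cells held 0 and 8, for which the counting interval of the ratio reached up to 0.576. Per2, its paralogue, had 14 UMIs in each library, 17 of the 28 in neutrophil clusters. Nr1d1 and Nr1d2, which encode the REV-ERB repressors of Arntl, had 12 and 11 UMIs and 12 and 19 UMIs. All 23 UMIs of Nr1d1 lay in B cell-like cells, with 9 and 10, or progenitor-like cells, with 3 and 1, and none in the Mono/Macro-like class, where a limit of 3 counts allows 1.12% and 1.08% of cells with a UMI at the thinned depth, and the exact interval up to 1.37% and 1.32%. Nr1d1 was thus seen in the class in which Arntl was highest. Over both libraries its interval there was 3.36 to 8.72 CPM. The upper ends were 0.943 CPM in Mono/Macro-like cells and 0.713 CPM in the neutrophil clusters together. Progenitor-like cells, at 0.549 to 5.16 CPM, overlapped B cell-like cells. Small classes with no UMI, such as T/NK-like cells at up to 8.04 CPM, overlapped them too.

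Dbp, a PAR bZIP activator that clock factors drive through E-boxes, had 77 and 81 UMIs, a ratio of 0.948 (0.685 to 1.31). B cell-like cells held 31 and 33 of them at 19.0 and 18.6 CPM. The classes from plasmacytoid dendritic-like at 24.0 CPM over both libraries through T/NK-like, B cell-like and Eosino/Baso-like to progenitor-like cells at 15.6 CPM overlapped in their intervals, and a gap separated progenitor-like cells from Mono/Macro-like cells at 6.14 CPM. Dbp was thus spread over more lineages than Arntl.

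Ddit4, which encodes REDD1, an inhibitor of mTORC1 induced by glucocorticoids, hypoxia and stress, showed the widest gap between the libraries. Its totals were 85 and 165 UMIs, at 9.83 and 19.1 CPM, a ratio of 0.514 (0.391 to 0.671). The gap was deepest in Mono/Macro-like cells, with 11 UMIs at 5.60 CPM against 66 UMIs at 33.9 CPM, a ratio of 0.165 (0.0786 to 0.315). In this class 11 of 267 Col1a1fspKO cells and 43 of 277 WT cells had a UMI, so the difference was spread over many cells.

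Ddit4 was lower in Col1a1fspKO in each cluster of the Mono/Macro-like class. Cluster 0, led by Wfdc17, Clec4a3 and Clec4a1, had 7 and 46 UMIs at 7.38 and 46.8 CPM. Cluster 9, led by Ass1 and Lgals1, had 2 and 10 UMIs, and cluster 11, led by Klf4, Ass1 and Fn1, had 2 and 10 UMIs. The ratios were 0.158 (0.0602 to 0.352), 0.184 (0.0196 to 0.862) and 0.196 (0.0209 to 0.921). At 2500 UMIs per cell, 1.87% of Col1a1fspKO and 8.30% of WT Mono/Macro-like cells had a Ddit4 UMI (exact intervals 0.611 to 4.32% and 5.34 to 12.2%), against 4.12% and 15.5% at their own depth. In the neutrophil clusters, with 5 and 2 Ddit4 UMIs in all, the thinned shares were 0.381% and 0.229%, at median depths of 3977 and 4631 UMIs.

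**Figure D2:**
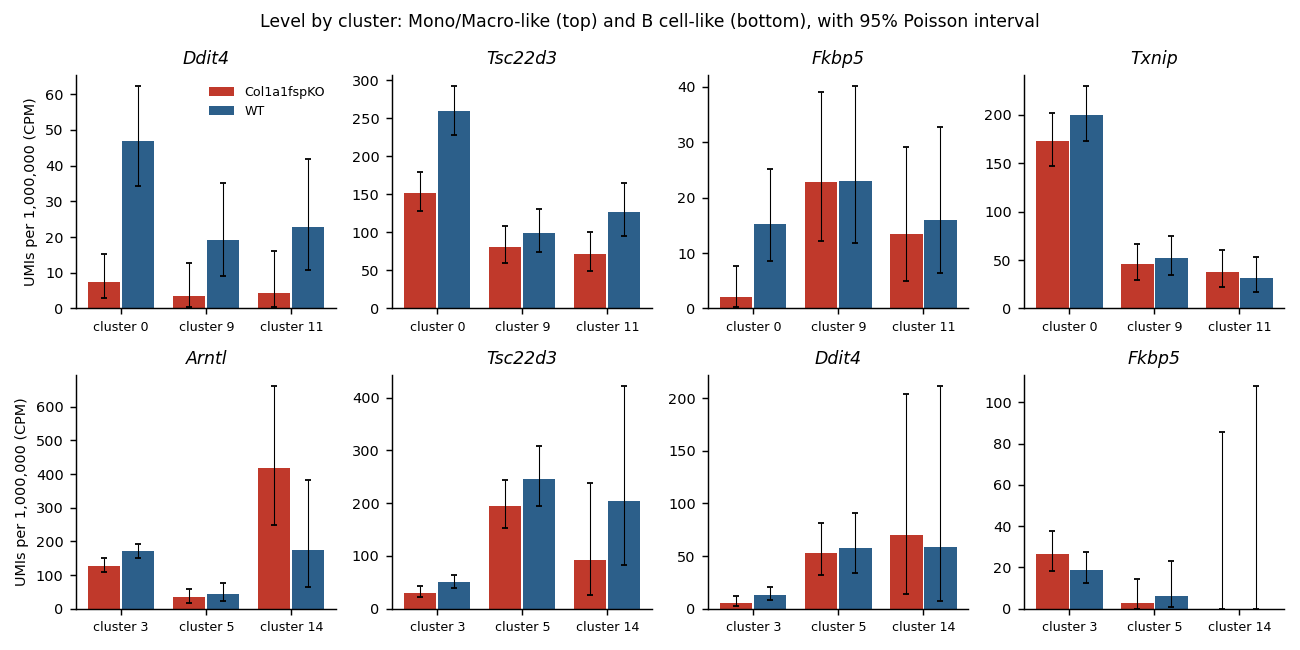
Level (CPM, with exact 95% Poisson intervals) in the 3 Mono/Macro-like clusters (top) and the 3 B cell-like clusters (bottom) of both libraries. Ddit4 is lower in Col1a1fspKO in clusters 0, 9 and 11 alike, Fkbp5 has 2 and 15 UMIs in cluster 0, and Arntl is high in clusters 3 and 14 and low in cluster 5.

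The highest Ddit4 level was in plasmacytoid dendritic-like cells, with 17 UMIs at 84.7 CPM in Col1a1fspKO and 24 UMIs at 182 CPM in WT, a ratio of 0.466 (0.235 to 0.904). In this class erythroid markers summed to 44620 and 10782 CPM with 11 and 9 of 12 detected and Klf1 at 0 in both, late neutrophil markers to 299 and 144 CPM with 4 and 3 of 9, and B cell markers to 144 and 409 CPM with 6 of 9 listed in each library. The class's own 6 markers summed to 8772 and 10411 CPM. The part of the other markers in the ratio was not tested. Among whole classes T/NK-like cells came next with 11 and 10 UMIs at 37.6 and 60.1 CPM, a ratio of 0.626 (0.241 to 1.64). The intervals of these classes, 88.4 to 167 and 28.3 to 69.9 CPM over both libraries, did not overlap. B cell-like cells had 30 and 39 UMIs, a ratio of 0.837 (0.502 to 1.38), and progenitor-like cells 9 and 18, a ratio of 0.594 (0.235 to 1.39). Within the B cell-like class, cluster 3 had 7 and 19 UMIs, a ratio of 0.436 (0.155 to 1.08). Cluster 5 had 20 and 18, a ratio of 0.910 (0.457 to 1.82), and cluster 14 had 3 and 2. Over both libraries Ddit4 stood at 9.87 CPM (6.45 to 14.5) in cluster 3. In cluster 5 it stood at 54.8 CPM (38.8 to 75.3), overlapping T/NK-like cells. Preneutrophil-like cells had none among 98 and 130 cells, for which a limit of 3 counts allows 3.06% and 2.31% of cells with a UMI, and the exact interval up to 3.69% and 2.80%.

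Tsc22d3, which encodes GILZ, an anti-inflammatory mediator of glucocorticoids, was the best covered of the set with 698 and 890 UMIs at 80.7 and 103 CPM, a ratio of 0.782 (0.707 to 0.865). Its level was highest in Eosino/Baso-like cells in Col1a1fspKO, at 182 CPM from 13 UMIs, ahead of late neutrophil-like cells at 148 CPM and Mono/Macro-like cells at 113 CPM. In WT it was highest in Mono/Macro-like cells, at 187 CPM, and late neutrophil-like cells, at 161 CPM. Erythroid-like cells were lowest in both, at 8.67 and 13.2 CPM. Over both libraries together the intervals of neighbours overlapped down to B cell-like cells, and progenitor-like cells, at 48.4 CPM, and erythroid-like cells stood below them without overlap. The B cell-like class averaged unlike clusters. Cluster 3 stood at 41.8 CPM (34.3 to 50.3) over both libraries. The more mature cluster 5 stood at 218 CPM (185 to 256), above the interval of the Mono/Macro-like class, 138 to 162 CPM, though cluster 0 of that class overlapped it at 207 CPM (187 to 228).

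The Tsc22d3 difference lay in some classes and not in others. Mono/Macro-like cells had 222 UMIs at 113 CPM in Col1a1fspKO and 363 UMIs at 187 CPM in WT, a ratio of 0.606 (0.510 to 0.718). The clusters in this class had ratios of 0.586 (0.474 to 0.722) in cluster 0, 0.812 (0.534 to 1.23) in cluster 9 and 0.561 (0.352 to 0.881) in cluster 11. The neutrophil clusters together had 267 and 258 UMIs at 100.5 and 103 CPM, a ratio of 0.979 (0.822 to 1.17), and the interval lay wholly above that of Mono/Macro-like cells. Plasmacytoid dendritic-like cells had 12 and 17 UMIs, a ratio of 0.464 (0.202 to 1.03), and T/NK-like cells 21 and 19 UMIs, a ratio of 0.629 (0.322 to 1.24). In B cell-like cells the ratio was 0.797 (0.621 to 1.02), with 0.600 (0.392 to 0.902) in the pre-B cluster 3 and 0.787 (0.564 to 1.10) in cluster 5. At 2500 UMIs per cell 26.2% of Col1a1fspKO and 38.6% of WT Mono/Macro-like cells had a Tsc22d3 UMI (exact intervals 21.0 to 31.9% and 32.9 to 44.6%), against 50.9% and 67.5% at their own depth. In erythroid-like cells, the class with the lowest Tsc22d3 level, the thinned shares were 1.19% and 5.13%, at median depths of 9210 and 10851 UMIs.

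**Figure D3:**
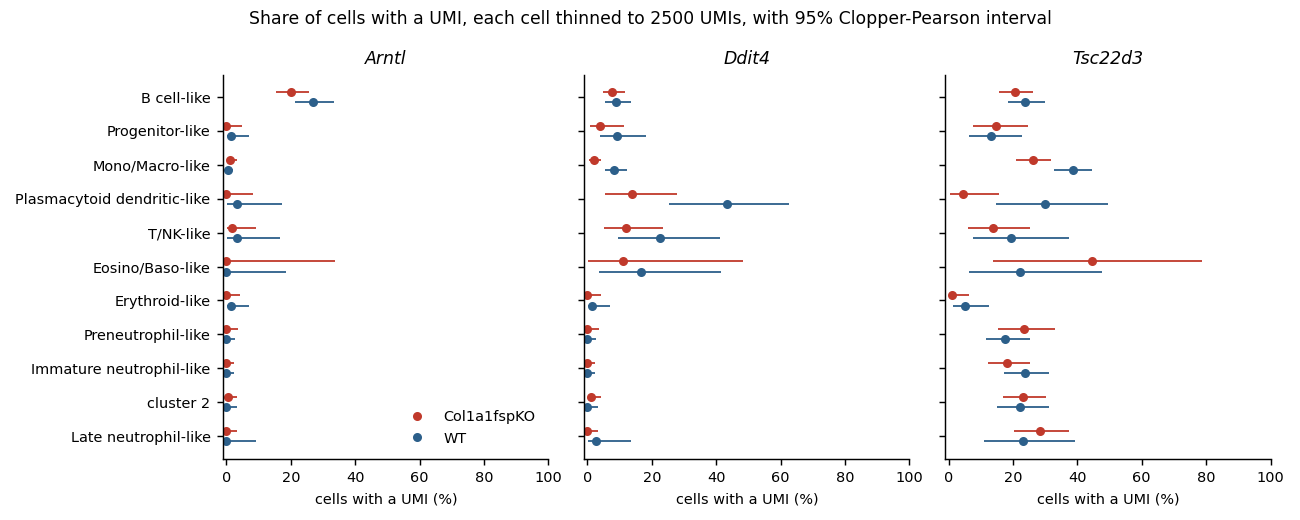
Share of cells with at least 1 UMI of Arntl, Ddit4 or Tsc22d3 (x axis, percent) in 11 classes of both libraries, each cell thinned to 2500 UMIs, with exact 95% intervals. In Mono/Macro-like cells the shares are 1.87% and 8.30% for Ddit4 and 26.2% and 38.6% for Tsc22d3, and the intervals do not overlap between the libraries.

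Fkbp5, a co-chaperone that lowers the affinity of the glucocorticoid receptor and is induced by it, had 118 and 136 UMIs, a ratio of 0.865 (0.670 to 1.12). In cluster 0 of the Mono/Macro-like class it had 2 and 15 UMIs, a ratio of 0.138 (0.0154 to 0.595), and in clusters 9 and 11 it had 13 and 12 and 6 and 7 UMIs. B cell-like cells had 33 and 29 UMIs, a ratio of 1.24 (0.729 to 2.11), and progenitor-like cells 21 and 29 at 23.1 and 26.9 CPM. The interval of cluster 0 thus lay below that of B cell-like cells, and the ratios of clusters 9 and 11 were 0.994 (0.418 to 2.38) and 0.842 (0.234 to 2.92), whose intervals overlapped that of cluster 0.

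Txnip, an arrestin that binds thioredoxin, curbs glucose uptake and responds to glucose as well as to glucocorticoids, had 543 and 585 UMIs, a ratio of 0.926 (0.822 to 1.04). In Mono/Macro-like cells it had 207 and 238 UMIs at 105 and 122 CPM, a ratio of 0.861 (0.711 to 1.04). Erythroid-like cells had 27 and 15 UMIs, a ratio of 1.77 (0.908 to 3.58), and Eosino/Baso-like cells 7 and 30 UMIs from 9 and 18 cells, a ratio of 0.355 (0.132 to 0.825). The order of classes by Txnip level differed between the libraries, but intervals overlapped. T/NK-like and plasmacytoid dendritic-like cells led in Col1a1fspKO, both near 130 CPM, and Eosino/Baso-like cells, at 276 CPM, and T/NK-like cells, at 180 CPM, led in WT. In Col1a1fspKO the intervals of the leaders, 91.9 to 178 and 84.6 to 190 CPM, overlapped that of Eosino/Baso-like cells, 39.4 to 202 CPM. Those of the WT leaders, 186 to 395 and 122 to 257 CPM, overlapped too, so a change of order was not resolved. Cluster 2, which could not be named because its leading genes Mmp8, Mmp9, Thbs1 and Ly6g fit late as well as immature neutrophils, had 35 and 43 UMIs, a ratio of 0.569 (0.354 to 0.910).

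Of the 6 genes with at least 20 UMIs in Mono/Macro-like cells, Per1, Dbp, Ddit4, Tsc22d3 and Fkbp5 were at least 1.5 times lower and none was that much higher, with Txnip short of the limit. Of all 8103 genes with at least 20 UMIs in the class, 7.27% were that much lower and 7.03% that much higher. Dbp had 8 and 16 UMIs, a ratio of 0.495 (0.183 to 1.23), and Per1 a ratio of 0.396 (0.126 to 1.08), so with Fkbp5, at 21 and 34 UMIs and 0.612 (0.337 to 1.08), their intervals reached past 1, unlike those of Ddit4 and Tsc22d3. With cells thinned to 2500 UMIs the count was 3, since Per1 and Dbp fell short. The other 4 genes, Arntl, Per2, Nr1d1 and Nr1d2, had between 0 and 7 UMIs in the class and were not counted. Of these, Arntl had 4 and 2 UMIs and Per2 1 and 0.

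**Figure D4:**
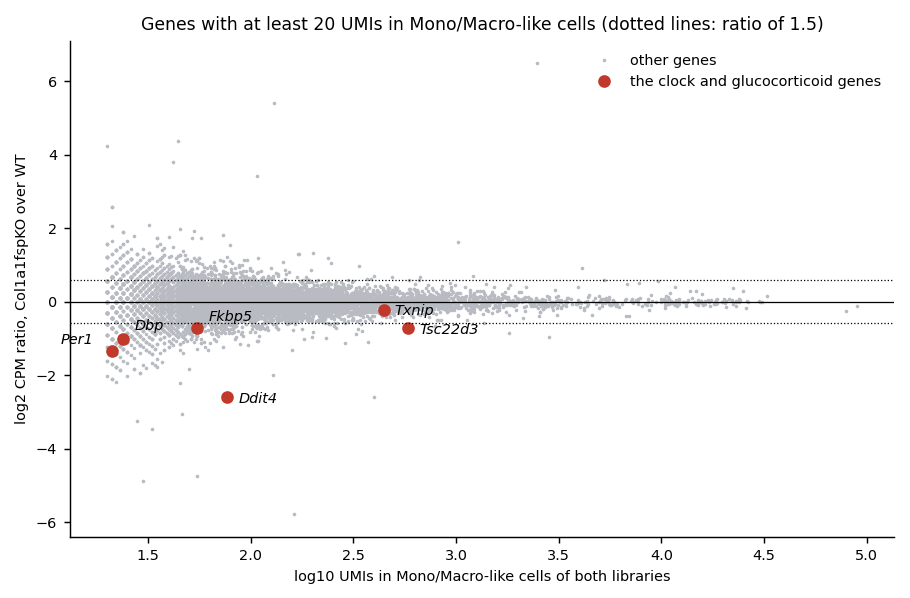
Log2 CPM ratio of Col1a1fspKO over WT (y axis) against log10 of the summed UMIs (x axis) for 8103 genes in Mono/Macro-like cells, with the 6 clock and glucocorticoid genes in red and dotted lines at a ratio of 1.5. Of the 6, 5 lie below the lower line, Ddit4 at a log2 ratio of -2.60.

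Over all cells, Per1, Nr1d2 and Ddit4 were at least 1.5 times lower and none was that much higher among all 10 genes, against 4.91% and 4.57% of 11109 genes. The ratio of Nr1d2 was 0.630 (0.279 to 1.37). Per1 and Nr1d2 turned above 1 when each named class was given equal weight, at log2 ratios of 0.068 and 0.51, so only Ddit4 kept its place under that weighting. In B cell-like cells none of the 6 genes with enough UMIs passed the limit in either direction, against 7.56% lower and 6.64% higher of all genes. In cluster 3 of this class the ratio was 0.436 for Ddit4 and 0.600 for Tsc22d3, while Fkbp5, at 1.40, and Txnip, at 1.07, were above 1. None of 3 passed in the neutrophil clusters, against 10.7% and 6.76%. Ddit4 and Tsc22d3 were past it of 3 genes in plasmacytoid dendritic-like cells, where 15.7% of genes were that much lower and 11.4% higher, and of 3 in T/NK-like cells, where the shares were 8.18% and 16.6%. In progenitor-like cells Ddit4 was lower and Dbp higher, with 18 and 13 UMIs, among 5 genes, against 8.24% and 9.76%. In erythroid-like cells Tsc22d3 was lower, with 8 and 12 UMIs, and Txnip higher of 2 genes, against 12.7% and 7.16%.

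**Figure D5:**
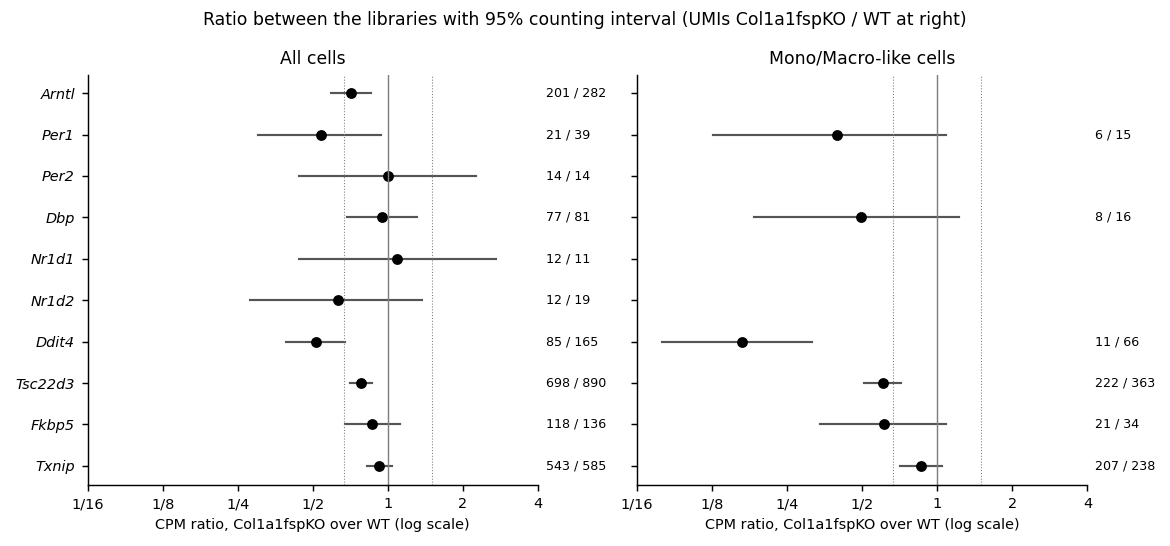
CPM ratio of Col1a1fspKO over WT (log axis) with exact 95% counting intervals, over all cells (left) and in Mono/Macro-like cells (right), with UMIs of Col1a1fspKO and WT at the right of each row and dotted lines at a ratio of 1.5. Ddit4 is lowest in both panels, at 0.514 and 0.165, and genes with fewer than 20 UMIs are left out.

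The glucocorticoid receptor gene Nr3c1 itself had 300 and 304 UMIs, a ratio of 0.984 (0.836 to 1.16), and 89 and 80 UMIs in Mono/Macro-like cells, a ratio of 1.10 (0.805 to 1.51). Among 7 genes of the receptor and its chaperones with at least 50 UMIs none was 1.5 times apart over all cells. Of 15 other glucocorticoid-induced genes with at least 50 UMIs, 2 were that much lower and none higher. These were Klf9, a Krüppel-like repressor that glucocorticoids induce, with 54 and 89 UMIs and a ratio of 0.605 (0.423 to 0.858), and the metallothionein Mt2 with 173 and 268 UMIs and 0.644 (0.529 to 0.782). The median log2 ratio of these 15 genes was 0.03, against -0.04 over all genes past the same minimum, so the list as a whole was not lower. Among all genes with at least 20 UMIs, 4.91% were at least 1.5 times lower and 4.57% higher.

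In Mono/Macro-like cells 3 of 11 such genes were at least 1.5 times lower and none higher. The shares over the 8103 genes of the class were 7.27% lower and 7.03% higher. Klf9 had 18 and 42 UMIs, a ratio of 0.424 (0.230 to 0.753). Cxcr4, the receptor that retains cells in marrow, had 115 and 210 UMIs, a ratio of 0.542 (0.428 to 0.684), and Mt1 51 and 77 UMIs. Cxcr4 and Mt1 are named here after their values were seen. The median log2 ratio of the 11 genes was -0.20 against -0.01 over all genes of the class.

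Of 9 other core clock genes with at least 50 UMIs none was 1.5 times apart, with a median log2 ratio of 0.11. Over all cells 4.91% of 11109 genes with at least 20 UMIs were that much lower and 4.57% higher. None of 4 clock output genes and none of 9 genes of the arrestin and thioredoxin group passed over all cells. In Mono/Macro-like cells, where 20 UMIs were required, Noct, a clock-controlled phosphatase, was lower at 15 and 29 UMIs, a ratio of 0.512 (0.255 to 0.987), as 1 of 2 clock output genes, and both were below 1. Arrdc3, an arrestin related to Txnip, was lower in that class at 18 and 39 UMIs, a ratio of 0.457 (0.246 to 0.818), as 1 of 8 genes of its group. Noct and Arrdc3 are named after their values were seen. Of all genes of the class, 7.27% were at least 1.5 times lower and 7.03% higher. Of 11 genes for stress and mTORC1 inputs, Sesn2, a stress-induced inhibitor of mTORC1 like Ddit4, was higher, with 47 and 31 UMIs and a ratio of 1.51 (0.941 to 2.46). The median log2 ratio of this list was -0.11, against -0.96 for Ddit4. In Mono/Macro-like cells Ddit3 of this list and Stip1 of the receptor chaperones were at least 1.5 times higher. In B cell-like cells Clock, Noct, Mt1 and Ddit3 were that much higher and Cxcr4 that much lower, against 6.64% and 7.56% of all genes. These genes too are named after their values were seen.

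Genes of cell dissociation and the immediate early response stood the other way. Of 11 with at least 50 UMIs, all 11 were above 1 and 2 were at least 1.5 times higher, Fos with 365 and 217 UMIs and a ratio of 1.68 (1.41 to 1.99), and Nr4a1 with 46 and 30 UMIs and 1.53 (0.945 to 2.51). The median log2 ratio of the 11 was 0.30, against -0.04 over all genes past the same minimum. Among all genes with at least 20 UMIs, 4.57% were at least 1.5 times higher. In Mono/Macro-like cells 8 of 11 were above 1, and 2 of these, Jun and Nr4a1, were at least 1.5 times higher, against 7.03% of all genes of the class. The median log2 ratio there was 0.17, against -0.01 over all genes of the class. Jun is named after its value was seen. Their part in the lower levels of the glucocorticoid-responsive genes was not tested.

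Markers of other cells in the Mono/Macro-like class also differed between the libraries. The class's own 12 markers summed to 4896 and 4833 CPM. Markers of immature neutrophils summed to 4062 and 2803 CPM with 7 and 8 of 8 detected, Abca13 being at 0 in Col1a1fspKO. T/NK markers summed to 141 and 69.4 CPM with 9 of 11 listed genes detected in each library. Cd3g and Ncr1 were at 0 in Col1a1fspKO, and Il2rb and Ncr1 in WT. Plasmacytoid dendritic markers, from the class with the most Ddit4, summed to 207 and 213 CPM with 4 and 3 of 6 detected. Cox6a2 and Klk1 were at 0 in both libraries and Ccr9 in WT. Preneutrophil markers summed to 674 and 1090 CPM with 5 and 6 of 6 detected. Plasma cell markers summed to 112 and 201 CPM with 2 and 3 of 4 listed genes detected. Tissue macrophage markers summed to 16.8 and 18.5 CPM with 5 of 5 detected. The median log2 ratio of genes with at least 100 UMIs in the class was -0.0025, and another scaling of the sums turned none of the 5 lower genes above 1. The part of these markers was not tested.

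The genes most like each of these over the 20 sums of 10 named classes and 2 libraries, by Pearson's r of log2(CPM + 10), are given as a description, since the points share libraries and depth. Arntl was most like Myl4, Pou2af1 and Rsph9, with r of 0.911, 0.910 and 0.909. Ddit4 was most like Fyn, Malat1 and Rbm5, at 0.920, 0.906 and 0.897. Tsc22d3 was most like Coro1a, Arpc2 and Actr2, at 0.935, 0.915 and 0.915, and Txnip like Fyb, Ankrd44 and Selplg, at 0.894, 0.864 and 0.860. Fkbp5 was most like Vgll4, Tor2a and Npepl1, at 0.880, 0.850 and 0.849, and Dbp like Tspan3, Dexi and Msi2, at 0.918, 0.905 and 0.901. Per1 was least well matched, with Tlk2, Ddi2 and Gm16586 at 0.750, 0.749 and 0.739. Among the set itself the closest pair was Ddit4 and Dbp, at 0.782, while Arntl and Dbp stood at 0.368.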

How the data were processed

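Live bone marrow cells of 1 Col1a1fspKO and 1 WT pool were profiled by 10x Genomics 3′ sequencing. The authors deposited whole-number UMI counts per gene and cell after Cell Ranger, and the submitters' processing notes also name Seurat 3.5.3 and mm10. A gene absent from 1 table was set to 0. The authors' filter of 200 to 7000 genes and at most 10% mitochondrial UMIs removed none of 2478 cells. Counts were log-normalised, and 1975 variable genes, 27 principal components and resolution 0.8 gave 15 clusters in Seurat 5.3.0 (R 4.3.3), with the members and all gene lists left out. Clusters were named from marker lists, and doublets were kept. UMIs were summed per class and library. A ratio of at least 1.5 in either direction among genes with at least 20 UMIs was counted, and an empty library was set to 3 UMIs. No test between genotypes was made. Poisson and Clopper-Pearson intervals cover counting error only. The scripts were tested on simulated data.

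The genes and lists were chosen with earlier results of these data known. Named genes were all 10, list genes with at least 50 UMIs and a ratio of 1.5 over all cells, Nr3c1, and the 3 genes most like each (at least 200 UMIs). Other clusterings, scalings, cell filters, thinning and limits were tried. Of the genes, 899 were listed for 1 library only, 16 of them with at least 20 UMIs.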

Additional observations from a re-analysis of the deposited data

How the results depend on the processing

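No paired analysis was possible because each genotype had 1 library. Of 296 recomputed log2 ratios of single genes, 8 left the counting interval of the reported value. Over all cells, where 3 genes were at least 1.5 times lower, the count was 1 with each named class weighted alike, 0 at a ratio of 2, 5 at a ratio of 5 to 4 and 1 among genes with at least 100 UMIs. None was higher as reported, and 1 was with a mean over cells of CPM, with thinned cells (Nr1d1 in both) and with classes weighted alike (Per2). Weighting classes alike also reversed Per1 to 0.068 and Nr1d2 to 0.51 (log2). With every cell thinned, 1.07% of Col1a1fspKO and 1.11% of WT cells had a Per1 UMI. In Mono/Macro-like cells the count of 5 lower genes was 3 with thinned cells, 3 at a ratio of 2 and 1 among genes with at least 100 UMIs, where Ddit4 is not counted. The log2 ratio of Ddit4 there ranged from -2.73 to -2.43 and that of Tsc22d3 from -0.76 to -0.71 over 12 alternatives each. At their own depth 37.9% and 45.5% of B cell-like cells had an Arntl UMI, 15.5% of WT Mono/Macro-like cells a Ddit4 UMI, and 50.9% and 67.5% a Tsc22d3 UMI. Except where fewer genes or a stricter ratio set the count, the cause was not tested. Depth limits Per2, Nr1d1 and Nr1d2, with 23 to 31 UMIs in all, to a statement on where they were seen, with upper limits for Nr1d1 in some classes.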
